A study of Mus musculus with 2 samples.

Results

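The transcripts described here are the 14285 entries of the G1E transcript tables whose identifier, without its version, GENCODE M21 classes as a retained intron. They make up 14.1% of the 101510 entries that matched M21, out of 129984 entries in all, and they lie in 6338 genes. Of the 14285, 14074 lie in protein-coding genes. A total of 13848 have the same length as in M21. Their median length is 829 nt, against 1869 nt for transcripts classed as protein coding and 634 nt for those classed as processed transcripts.

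A retained-intron transcript is one in which sequence that is spliced out of the coding mRNA of the same gene stays in the RNA. Such RNAs are often held in the nucleus, and many carry a premature stop codon that can expose them to nonsense-mediated decay once they reach the cytoplasm. Splicing factors are known to adjust their own levels through such RNAs, and regulated intron retention is known from maturing erythroblasts.

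The cells were G1E, an immortal line of mouse erythroid progenitors (C57BL/6J, labelled male) that lacks Gata1, the gene of a transcription factor needed for red cell maturation. Total RNA above 200 nt was sequenced in 2 biological replicates, each made from 1 ng with spike-in RNAs added. All values therefore come from 1 line without Gata1, no treatment is labelled, and no second genotype is compared. Because total RNA was used, nuclear RNA that is not fully spliced can be present beside mature mRNA, and the files do not separate them. The progenitor markers Gata2, Kit, Gfi1b, Nfe2, Klf1, Tal1 and Epor were all present, from 5.3 TPM for Epor in replicate 2 to 175 TPM for Kit in replicate 1. The lymphocyte markers Cd3e and Cd79a and the fibroblast marker Col1a1 were at 0 in both libraries, and the fibroblast marker Pdgfra was at 0.08 TPM or below. TPM scales the reads of a transcript by its length and by the library, a level per length. The libraries held 31649877 and 40597614 estimated counts, of which 1.49% and 1.09% lay on retained-intron transcripts. The median protein-coding gene had 1.57 times the TPM in replicate 1 that it had in replicate 2.

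The introns below are those that the abundant transcripts Ncl-202, Eif4a2-205, Gapdh-206 and Mrps26-201 and the kinase transcripts Clk1-204 and Clk4-213 keep whole, as far as they are 300 nt or shorter. They are shown because the description of the kept introns below includes what such an intron does to the reading frame. Sequences are the transcript's own strand, 5′ to 3′, from GENCODE M21 transcripts on GRCm38. Capitals mark the first and the last 2 bases of each intron (GT and AG) and the first stop codon in the frame of the upstream coding exon.
Ncl intron 10: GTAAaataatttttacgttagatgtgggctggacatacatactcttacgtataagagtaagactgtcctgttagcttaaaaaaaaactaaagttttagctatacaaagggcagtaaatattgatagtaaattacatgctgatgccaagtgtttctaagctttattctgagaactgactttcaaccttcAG
Eif4a2 intron 5: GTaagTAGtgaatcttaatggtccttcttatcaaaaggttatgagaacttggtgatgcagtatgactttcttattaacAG
Gapdh intron 5: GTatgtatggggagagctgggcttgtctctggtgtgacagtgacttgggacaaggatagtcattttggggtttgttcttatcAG
Mrps26 intron 2: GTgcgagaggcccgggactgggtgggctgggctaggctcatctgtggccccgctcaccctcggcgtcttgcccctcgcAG
Clk1 intron 6: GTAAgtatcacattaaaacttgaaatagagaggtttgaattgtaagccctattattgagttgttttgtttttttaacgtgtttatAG
Clk4 intron 7: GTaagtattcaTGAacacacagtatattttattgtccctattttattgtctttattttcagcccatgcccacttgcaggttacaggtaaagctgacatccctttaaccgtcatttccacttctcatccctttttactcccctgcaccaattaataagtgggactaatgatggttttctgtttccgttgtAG
Clk4 intron 8: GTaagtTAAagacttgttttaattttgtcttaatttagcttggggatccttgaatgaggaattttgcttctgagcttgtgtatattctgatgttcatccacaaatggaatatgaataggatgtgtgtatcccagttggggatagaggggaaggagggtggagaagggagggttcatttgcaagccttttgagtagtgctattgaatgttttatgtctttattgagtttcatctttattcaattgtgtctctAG
Ncl intron 10 of 13 lies at chr1:86352320-86352509 on the minus strand. Eif4a2 intron 5 of 10 lies at chr16:23110154-23110233 on the plus strand. Gapdh intron 5 of 6 lies at chr6:125162394-125162477 on the minus strand. Mrps26 intron 2 of 3 lies at chr2:130564228-130564307 on the plus strand. Clk1 intron 6 of 12 lies at chr1:58417180-58417266 on the minus strand. Clk4 introns 7 and 8 of 12 lie at chr11:51275579-51275769 and chr11:51275865-51276117 on the plus strand. All of them separate coding exons. Counted from the first base of the intron, the stop codon starts at base 2 in Ncl intron 10 and Clk1 intron 6, at base 6 in Eif4a2 intron 5, at base 12 in Clk4 intron 7 and at base 7 in Clk4 intron 8. Gapdh intron 5, of 84 nt, and Mrps26 intron 2, of 80 nt, hold no in-frame stop. The length of the Gapdh intron is a multiple of 3, so the frame runs on through it.

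Clk1 and Clk4, kinases that phosphorylate SR splicing proteins, keep an intron at the same place, number 4 of 12 in each gene. The 9 bases around the 5′ end of that intron (3 in the exon, 6 in the intron, with the GT in capitals) are the same in both genes, and the 3′ ends (20 bases of intron, the last of them the AG in capitals, and 3 of exon) differ.
Clk1 intron 4, 5′ end: gatGTatag
Clk4 intron 4, 5′ end: gatGTatag
Clk1 intron 4, 3′ end: taattattcctcttttttAGatg
Clk4 intron 4, 3′ end: ctttctctcccttactttAGatg
The Clk1 intron, of 387 nt, lies at chr1:58419734-58420120 on the minus strand, and the Clk4 intron, of 391 nt, at chr11:51273169-51273559 on the plus strand. A splice site score was computed as the log2 odds of the bases at each position, over all distinct introns that retained-intron transcripts keep whole. The shared 5′ end scored 1.19, and 1.52% of the 4793 introns scored lower. Introns 3 of the same genes scored 5.46 in Clk1 and 4.68 in Clk4. A score describes likeness to the other kept introns and is no measure of splicing.

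Retained-intron transcripts took 9.59% of the TPM of nuclear protein-coding genes in replicate 1 and 9.83% in replicate 2 (9.71% ± 0.168, SD, n = 2). Transcripts classed as protein coding took 80.9% and 81.2%, processed transcripts 6.11% and 5.88%, and those classed as targets of nonsense-mediated decay 2.56% and 2.34%. Retained-intron transcripts thus held the second largest share of the classes in both libraries. Counted by reads instead of TPM, their share was 5.46% and 5.69% (5.58% ± 0.161, SD, n = 2), since a short transcript needs fewer reads for the same TPM.

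Of the 14285 transcripts, 2215 in 1434 genes reached 1 TPM in both libraries, 1298 reached it in replicate 1 alone and 512 in replicate 2 alone. A total of 5147 had no count in either library. Only 132 reached 10 TPM in both libraries, 13 reached 50 TPM and 3 reached 100 TPM. The share of transcripts at 1 TPM or more in both was 15.5% for retained introns in protein-coding genes, 20.9% for protein-coding transcripts, 9.50% for processed transcripts and 10.8% for decay targets. Of the 2215, 2188 had a count with a part after the decimal point in at least 1 library, that is, reads shared with other transcripts, of the same gene or of others, and divided by a model. The deposited TPM interval started at 1 or above in both libraries for 1322.

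By their exons, the 13848 transcripts of unchanged length fell into kinds. Of these, 4063 span at least 1 whole intron of a coding transcript, as Ncl-202 does, and 551 of those reached 1 TPM in both libraries. Another 9461 do not span a whole intron but begin or end inside one, and 1542 of those reached 1 TPM. The transcripts that begin or end inside an intron held 67.7% and 69.3% of the retained-intron TPM, and those that span an intron held 30.8% and 29.2%. Among the 1995 transcripts at 1 TPM or more in both libraries that lay in genes of at least 5 TPM, the median had 336 nt outside all coding exons, 39.5% of its length, and 7 had none. For the 4205 transcripts of such genes that stayed under 1 TPM in a library the medians were 314 nt and 42.9%. Reads from the rest of a transcript, apart from any over exon junctions of its own, cannot tell it from the coding mRNA.

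**Figure D1:**
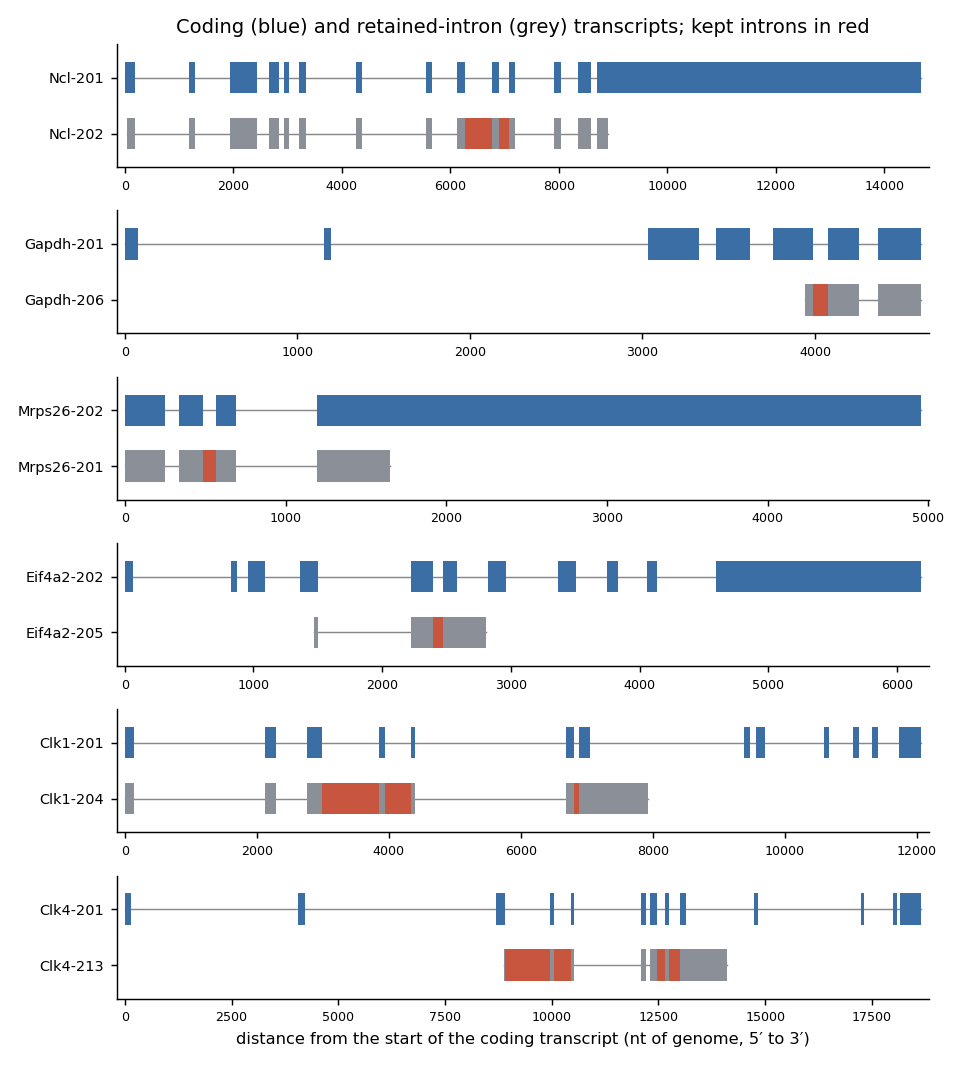
Exons of a coding transcript (blue, upper row) and of a retained-intron transcript (grey, lower row) of 6 genes against the distance from the start of the coding transcript in nt, with introns that are kept whole in red. Ncl-202 keeps introns of 492 and 190 nt and stops near the start of the long last exon of Ncl-201, while Clk1-204 and Clk4-213 keep neighbouring introns and end inside a further one.

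Genes were compared by their retained-intron share, the percentage of the gene's TPM that lay on retained-intron transcripts. Of 5042 genes with at least 5 TPM in both libraries, 2395 (47.5%) carry such transcripts. Their median share was 15.2% in replicate 1, with quartiles of 5.76% and 31.9%, and 16.7% in replicate 2, with quartiles of 6.64% and 32.9%. A share of at least 10% in both libraries was found for 1330 genes, of at least 25% for 683, of at least 50% for 175, of at least 75% for 23 and of at least 90% for 5. The 175 genes are 7.31% of the carriers, and 174 of them are protein coding. Another 133 genes reached 50% in 1 library and not in the other, and 41 carriers were at 0 in both. Across the 2395 genes, which are not independent replicates and share the annotation and its lengths, Pearson's r between the libraries' shares was 0.880 and Spearman's rho was 0.865. The median difference in size was 4.23 percentage points, and for 1907 genes (79.6%) it was under 10 points.

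**Figure D2:**
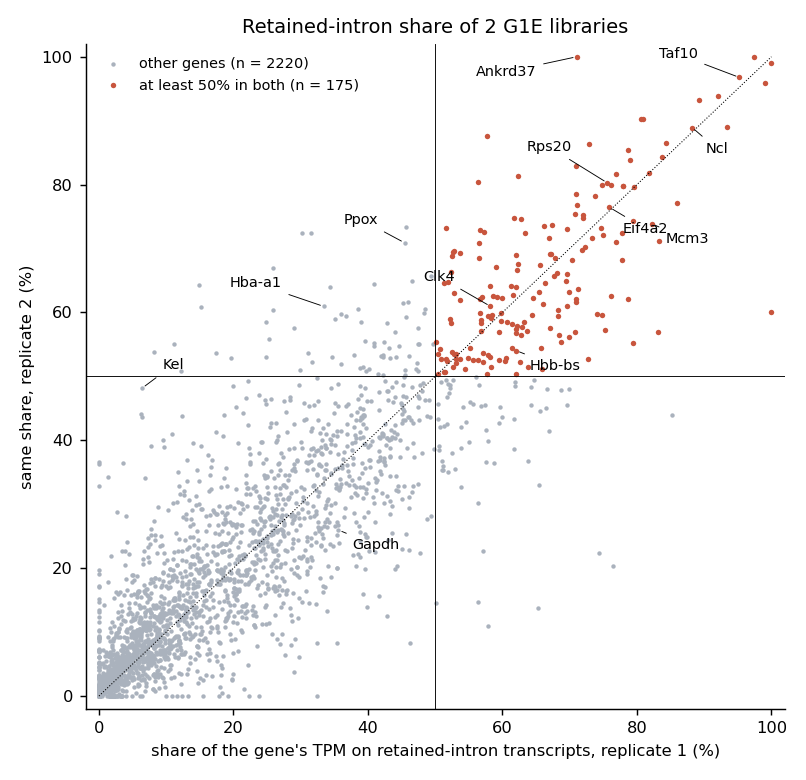
Retained-intron share of TPM in replicate 2 against replicate 1, in percent, for 2395 genes; each point is a gene, red points have at least 50% in both libraries (175 genes), and the dotted line marks equal shares. Ncl and Eif4a2 lie near the line, while Ppox, Hba-a1 and Kel lie above it.

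The share moved with how many such transcripts a gene has in the annotation. Genes with 1 of them had median shares of 5.91% and 6.71%, and 12 of 806 reached 50% in both libraries. With 2 or 3 the medians were 16.5% and 17.8%, and 51 of 980 reached it. The 106 genes with 7 or more had medians of 48.0% and 49.0%, and 42 of them (39.6%) reached it. By level of the gene the proportions varied less: 8.24% of the 619 genes between 5 and 10 TPM and 8% of the 125 genes above 100 TPM reached 50%. The median share of the genes above 100 TPM was lower, 8.2% and 6.76%, against 15.02% to 18.6% at the other levels. Both are descriptions, because the annotated number enters the share itself. By reads instead of TPM, the 175 genes had median shares of 42.6% and 41.1%, and 51 of them still had at least 50% in both libraries.

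The 10 protein-coding genes of highest mean share were Dynlt1c, Triobp, Taf10, Nmd3, Wdr11, Mrps26, Ncl, Rxylt1, Ankrd37 and Uba7. Taf10, a subunit of the transcription factor TFIID and of the SAGA complex, had 77.3 TPM on retained-intron transcripts in replicate 1 and 45.9 TPM in replicate 2. That was 95.2% and 96.8% of the TPM of the gene, and 69.6% and 77.5% of its reads. Nmd3, an export adaptor of the large ribosomal subunit, had 92.1% and 93.9% of its TPM there but 50.5% and 50.1% of its reads. Ncl, nucleolin, an abundant RNA-binding protein of the nucleolus, combined a high share with a high level. Its share was 88.2% and 88.9%, and Ncl-202 (ENSMUST00000185676.2, 3072 nt) alone had 232 and 140 TPM, 84.5% and 84.4% of the gene. Mrps26, a protein of the mitochondrial ribosome, had 93.4% and 89.0% on its single retained-intron transcript, Mrps26-201. Triobp, an actin-binding protein, had 99.1% and 95.9%, and Wdr11, a WD-repeat protein, had 89.3% and 93.2%. With posterior mean TPM, another deposited estimate of the level, the mean share of Triobp over both libraries was 83.2% instead of 97.5%. Ankrd37 differed most between the libraries, with 71.0% and 100% at 8.25 and 6.59 TPM for the whole gene. Dynlt1c, a dynein light chain, had 97.4% and 100%, and near-identical copies of it exist in the genome, so its reads may be divided wrongly. The non-coding gene 1810026B05Rik stood above all of these, with 100% and 99.0%.

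In several of these genes the coding model is long. The longest coding transcript of Ncl, Ncl-201, is 8202 nt with a last exon of 5978 nt, where Ncl-202 ends after a short stretch of that exon. Ncl-201 had 4974 and 3466 estimated counts against 14581 and 12178 for Ncl-202. The last exon of the coding transcript is 3758 nt in Mrps26, 3671 nt in Taf10, 7602 nt in Nmd3, 3576 nt in Rxylt1 and 2179 nt in Dynlt1c. Of Ncl-202's length 22.2% lies outside coding exons, and of Mrps26-201's 7.57%. The part of these lengths in the shares was not tested. Over the high-share genes coding transcripts were longer, with a median of 3106 nt for the most abundant one against 2611.5 nt among the other carriers, but their last exons were not. The most abundant coding transcript had a median last exon of 822 nt in the high-share genes, and 39 of 174 (22.4%) had one over 2000 nt, against 985 nt and 557 of 2210 (25.2%) among the other carriers. Only 15 genes reached 50% in both libraries on transcripts that span a whole intron, among them Mrps26, Ncl, Rps20, Dynlt1c, Ankzf1, Ppp1r35, Trim28 and Copa, named after their values were seen. Trim28, a corepressor that silences retroelements, had 57.3% and 54.7% on such transcripts, at 45.8 and 22.8 TPM. Copa, a subunit of the COPI vesicle coat, had 56.3% and 53.7%, at 35.5 and 23 TPM. In 64 of the 175 genes no TPM lay on a transcript that spans an intron in either library.

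The rule for a high share is a threshold, and genes lie close to both of its sides. Just inside were Cars (50.1% and 55.4%), Srpk1 (50.4% and 53.5%) and Flot1 (62.0% and 50.4%). Just outside were Ogt (56.1% and 49.9%), Arfgef1 (49.7% and 55.0%) and Arrdc3 (52.7% and 49.5%).

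By level, the retained-intron transcripts at the top belonged to abundant housekeeping, translation and globin genes. Gapdh-206 (ENSMUST00000147954.1, 565 nt), from the glycolytic enzyme gene, had 910 TPM in replicate 1 and 373 TPM in replicate 2, 35.1% and 25.4% of the gene. It keeps intron 5, printed above, and 14.9% of its length lies outside coding exons. Rpl12-202, from a gene of the large ribosomal subunit, had 398 and 278 TPM (44.3% and 48.2%) and ends inside an intron. Eef1a1-202, from the elongation factor that brings aminoacyl-tRNA to the ribosome, had 231 and 35.3 TPM, which is 5.21% and 1.30% of a very abundant gene. Pabpc1-204, from the cytoplasmic poly(A)-binding protein, had 173 and 84.6 TPM and keeps an intron of 74 nt. Eif4g2-210, from a translation initiation factor, had 169 and 70.4 TPM. Of the first 10, 7 were higher in replicate 1 by TPM, the direction in which the median gene differed 1.57-fold. By scaled counts Rpl12-202 was instead slightly higher in replicate 2 (ratio 1.06). Hbb-bs-202, Hba-a1-202 and Tpt1-208 were higher in replicate 2. Gapdh, Eef1a1, Pabpc1 and the ribosomal protein genes have processed pseudogenes, so the division of their reads is uncertain. For Gapdh-206 in replicate 1 the deposited interval ran from 855 to 902 TPM, below the deposited 910, so value and interval are different estimates.

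**Figure D3:**
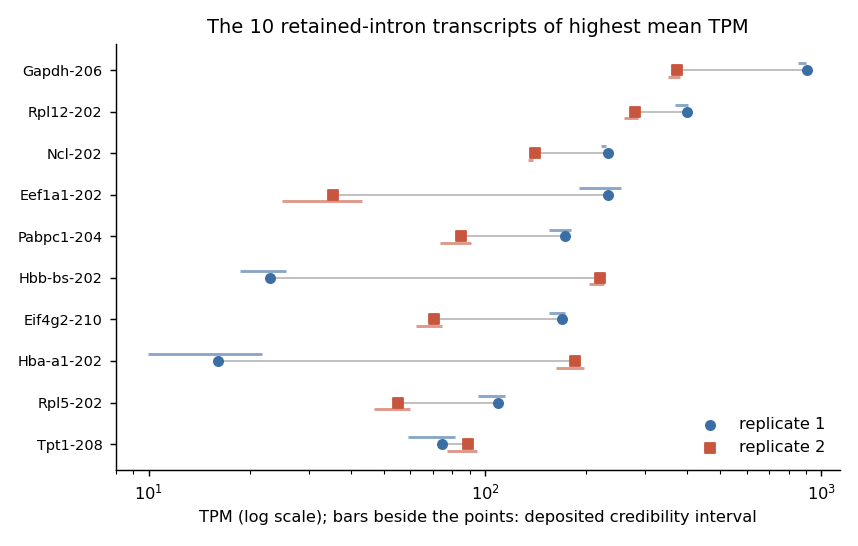
TPM on a log scale of the 10 retained-intron transcripts with the highest mean, in replicate 1 (blue circles) and replicate 2 (red squares), with the deposited credibility interval as a bar beside each point. Gapdh-206 lies at 910 and 373 TPM, and Hbb-bs-202 and Hba-a1-202 are far higher in replicate 2.

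Among genes of splicing itself, the lists differed. No list here or below was matched to all carriers for the number of annotated retained-intron transcripts, with which the share moved. There were 15 carriers among the SR proteins and their kinases, which choose splice sites and are switched by phosphorylation. Of them 3 (20%) reached 50% in both libraries, against 7.31% of all carriers. A share of 25% in both was reached by 9, against 683 of all 2395 carriers. Their median shares were 30.5% and 32.4%, against 15.2% and 16.7% over all carriers. Srsf11 had the highest, 67.2% and 69.2%, spread over 3 transcripts of 16.6, 16.2 and 14.7 TPM in replicate 1. Clk4 had 58.2% and 61.0%, at 20.4 of 35.0 TPM and 14.2 of 23.2 TPM. Clk1 had 42.6% and 49.2% by TPM and 55.9% and 58.6% by reads. Srpk1, another SR protein kinase, had 50.4% and 53.5% by TPM but 23.4% and 22.5% by reads. At the low end were Son (7.67% and 6.30%) and Srsf6 (8.18% and 12.6%). Among 28 carriers of the core spliceosome 2 (7.14%) reached 50%, close to the 7.31% of all carriers, with medians of 21.6% and 23.8%. They were Luc7l (67.7% and 65.8%), a protein associated with the U1 snRNP, and Rbm5 (57.0% and 62.5%), a splicing regulator. The other end of that list held Prpf8, the core scaffold of the spliceosome, with 0.16% and 0%. Among 13 carriers of the hnRNP and FET proteins 1 did (7.69%), and the medians were 23.04% and 20.4%. It was Hnrnpk, with 51.3% and 50.8% at 153 and 99.5 TPM but 25.6% and 24.8% of reads. Hnrnpu, a nuclear RNA-binding protein of the same list, had 48.5% and 46.3%, and 7.87% and 8.33% of reads.

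Of 13 carriers known for regulated intron retention, 10 had at least 25% in both libraries, against 683 of all 2395 carriers. At least 50% in both was reached by 2 (15.4%, Clk4 and Eif4a2), against 7.31% of all carriers. The medians were 35.4% and 37.3%. The list was put together from what is known of other cells, and it shares Clk1 and Clk4 with the SR list. Eif4a2, a helicase of translation initiation, had 75.9% and 76.5%, at 126 of 166 TPM and 79.5 of 104 TPM. By reads its share was 47.8% and 46.5%, below 50% in both. It was divided over 15 annotated retained-intron transcripts, of which Eif4a2-216 led with 28.04 and 19.7 TPM. Ogt, the enzyme that attaches N-acetylglucosamine to proteins in the nucleus and cytosol, had 56.1% and 49.9%. Ogt-204 alone had 49.3 and 32.4 TPM and keeps intron 1 of 22 whole, in the 5′ UTR. That intron is only 107 nt long, while 2378 of the 3087 nt of Ogt-204 lie outside coding exons. Nxf1, the export receptor of mRNA, had 22.0% and 13.3%. Among 9 carriers of decay and surveillance factors none reached 50% in both, though the medians were 37.7% and 31.7%. The exonuclease gene Xrn1 had 55.1% and 45.9% (29.4% and 22.8% of reads), Zfc3h1, of a nuclear RNA surveillance complex, 45.5% and 50.9% (8.69% and 9.64% of reads), and the exonuclease gene Xrn2 51.1% and 35.9% (6.67% and 3.76% of reads). Of 8 export factors none reached 50% in both, and Alyref, an mRNA export adaptor, had 40.8% and 54.8% (18.2% and 31.7% of reads).

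The ribosomal protein genes of the list differed from these. Of 33 on the list 16 are carriers, and their median share was 4.05% and 3.17%, with Rpl19 at 0.50% and 0.24%. Rps20 (75.6% and 80.3%) and Rpl5 (54.9% and 53.0%, or 33.1% and 30.5% of reads) were the exceptions on this list at 50% or more in both. They made up 12.5% of the carriers on this list, against 7.31% over all carriers. Rps20-201, the leading one, had 81.3 and 62.3 TPM and keeps intron 1 of 192 nt, while the coding transcript Rps20-203 is 3706 nt with a last exon of 3350 nt. By reads, Rps20 had 28.4% and 34.1%. Ribosomal protein genes outside the list could be high too. Rpl24-202 alone held 68.5% and 55.9% of the TPM of Rpl24, whose retained-intron share of reads was 57.3% and 43.6%. Rps16-203 held 42.8% and 47.5% of the TPM of Rps16. Among 15 carriers of the cell cycle list 4 (26.7%) reached 50% in both libraries, against 7.31% of all carriers. Mcm3, a subunit of the replicative helicase, had 82.2% and 73.9%, at 117 and 57.7 TPM, but 55.3% and 38.4% of reads. Its leading transcript Mcm3-205 (74.4 and 46.7 TPM) has 26 of its 607 nt outside coding exons. Ccnl1 and Ccnl2, cyclins of the splicing machinery, had 69.9% and 63.3%, and 62.4% and 67.6%. Cdk1, the mitotic kinase, had 59.5% and 56.9% but 27.4% and 17.1% of reads.

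In the genes of red cells the shares ranged widely. Of 9 carriers in the list of haem, iron and globin genes 1 (11.1%) reached 50% in both, against 7.31% of all carriers. It was Hbb-bs, an adult beta-globin, with 62.0% and 54.0%. Tfrc, the transferrin receptor, had 47.5% and 46.9%, at 40.3 of 84.9 TPM and 31.4 of 67.0 TPM. By reads Tfrc had 29.4% and 33.7%. Hba-a2, an alpha-globin gene, was at 0 in both. Of 6 carriers each among the erythroid and haematopoietic regulators and the red cell membrane genes none reached 50% in both. Myb, the progenitor transcription factor, was the highest of the regulators, with 38.2% and 27.1% on Myb-202, and Kit, the stem cell factor receptor, had 8.77% and 11.9%. Runx1 had 11.8% and 16.3%, and Ldb1, a cofactor of GATA complexes, 16.2% and 19.2%. Among membrane genes Ank1 (ankyrin) had 6.99% and 10.3%, and Sptb (beta spectrin) 0% in both.

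**Figure D4:**
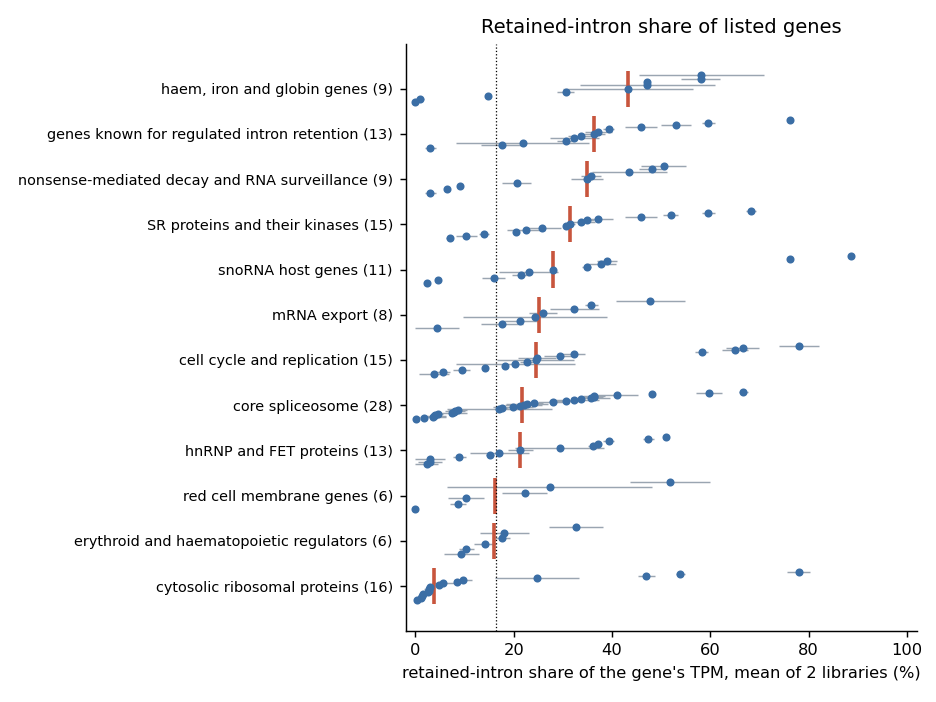
Retained-intron share of TPM, as the mean of both libraries in percent, for the carriers of 12 gene lists (number of carriers in brackets); points are genes, grey lines join the 2 libraries, red bars are the medians of the points and the dotted line is the median over all 2395 carriers. Ribosomal protein genes lie lowest apart from 4 of them, and the bars of the haem, regulated retention, surveillance and SR lists lie farthest to the right.

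The introns kept whole were short. The transcripts at 1 TPM or more in both libraries kept 648 distinct introns in 440 genes, with a median of 294 nt (quartiles 121.5 and 822.5 nt), and 39.0% were under 200 nt. All 66501 coding introns of genes with at least 5 TPM had a median of 1344 nt, and 12.9% were under 200 nt. These sets were built differently. For each transcript, an intron that contains a shorter one it also keeps was left out, while the 66501 are all distinct coding introns. The 66501 also come from genes with and without retained-intron transcripts. The part of these rules in the lengths was not tested. The 1466 introns kept by transcripts under 1 TPM in a library, in genes with the same minimum of 5 TPM, were short as well, with a median of 229 nt. Some of these reached 1 TPM in 1 library, since 966 introns were at that level in replicate 1 and 763 in replicate 2. Between the 648 and the 1466 introns, GC content differed. The median was 44.2% (quartiles 37.1% and 53.0%) for the 648 and 51.0% (44.2% and 56.4%) for the 1466. No test was made, because introns of a gene share reads. Above the minimum, the levels of the genes were not matched between the 648 and the 1466. GT and AG bounded 97.8% of the 648 introns and GC and AG 1.70%. The median 5′ splice site score was 7.57 for the 648 and 7.71 for the 1466. The last intron of the coding transcript made up 9.72% of the 648 and 6.55% of the 1466. Of the 648, 609 lie between coding exons, and 551 of those (90.5%) hold a stop codon in frame. Its median first base was 28 from the start of the intron. Among the 1466, 1409 lie between coding exons and 1244 of those (88.3%) hold one. Of the 58 without a stop among the 609, 20 have a length that is a multiple of 3, as in Gapdh intron 5.

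**Figure D5:**
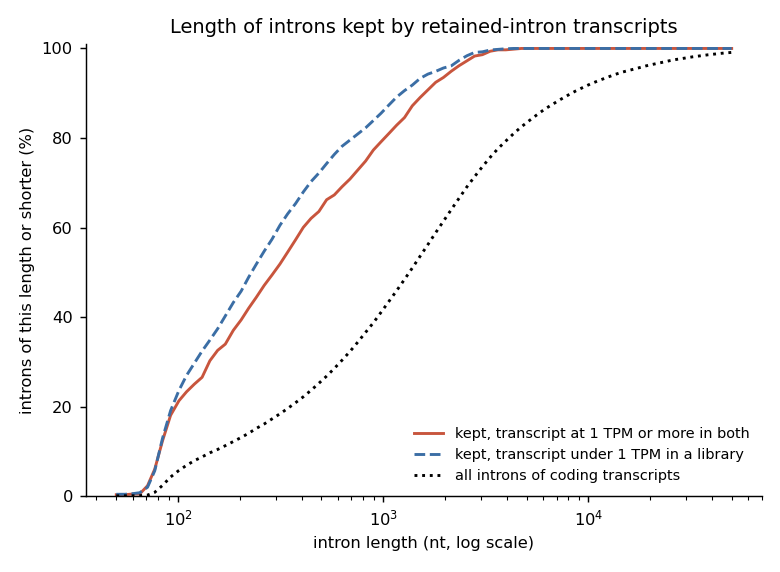
Cumulative share of introns, in percent, against intron length in nt on a log scale, for introns kept whole by retained-intron transcripts at 1 TPM or more in both libraries (648), by those under 1 TPM in a library (1466), and for all coding introns of genes at 5 TPM or more (66501). Both kept sets lie far to the left of all introns, with medians of 294, 229 and 1344 nt. An intron containing a shorter one kept by the same transcript was left out of the kept sets only.

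Some of the retained sequence holds a small nucleolar RNA (snoRNA), a guide RNA for the modification of ribosomal RNA that is cut from the introns of host genes. Of the 1995 transcripts at 1 TPM or more in both libraries 26 (1.30%), in 20 genes, contain an annotated snoRNA, against 10 of 4205 (0.238%) under 1 TPM in a library. Of the kept introns, 20 of 648 and 6 of 1466 hold one. Of the 26, 6 are from Eif4a2. Others are from Nop56 and Nop58, core proteins of snoRNA complexes, Rack1, Hspa8, Eif4a1 and genes of ribosomal proteins. Nop56-213 had 15.8 and 6.66 TPM, and Rack1-206, which spans 3 snoRNAs, 4.53 and 3.01 TPM. Most of these snoRNAs are themselves listed at 0 in both libraries. The libraries were made from RNA above 200 nt, so a 0 says little about a shorter RNA. Exceptions include Snora64 within Rps2-204, at 79.0 and 90.3 TPM, and Gm22988 within Eif4a1-202, at 691 and 459 TPM. Rps2-204 itself had 3.51 and 3.49 TPM, and Eif4a1-202 itself had 4.18 and 2.43 TPM. Whether reads of the snoRNA or its precursors add to the transcripts was not tested. Among 11 carriers of the list of snoRNA host genes Ncl and Eif4a2 (18.2%) reached 50% in both libraries, against 7.31% of all carriers. Eif4a2 is also on the list of regulated retention. Zfas1, a non-coding host gene, had 36.9% and 41.0%.

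The labels give 1 group, so the only comparison is of library with library, and a p-value there covers counting error in this pair alone. The retained-intron share of the estimated count was compared by Fisher's exact test (two-sided, Benjamini-Hochberg adjusted over 3987 genes). It differed by at least 10 points at an adjusted p under 0.05 in 548 genes, 13.7% of those tested, 312 of them higher in replicate 2 and 236 in replicate 1. The same rule called 353 of 1966 genes (18%) for the share on decay targets and 286 of 3289 (8.7%) for the share on processed transcripts. Retained-intron shares therefore differed between the libraries at a rate between those of both other classes. The lists of splicing genes had few calls: 1 of 15 SR genes and kinases (Srsf4), 1 of 14 hnRNP and FET genes (Ptbp1), 2 of 29 spliceosome genes (Snrpc and U2af1l4), 0 of 14 genes known for regulated retention and 0 of 16 ribosomal protein genes. The median difference over these lists lay between -0.34 and 1.97 points.

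Of the gene lists, that of haem, iron and globin genes was called most often, 6 of 11 against 13.7% of all genes tested. Higher in replicate 2 were Uros (22.9% and 72.9% of reads), Ppox (65.5% and 84.8%), Hba-a1 (24.6% and 50.1%) and Alas2 (2.63% and 13.6%). Higher in replicate 1 were Urod (31.1% and 14.7%) and Hbb-bs (70.3% and 54.3%). Uros, Ppox, Alas2 and Urod encode enzymes of haem synthesis. The whole genes differed as well: in replicates 1 and 2 Hbb-bs had 36.9 and 408 TPM, Alas2 1.88 and 17.6 TPM, Ppox 9.53 and 22.6 TPM, and Urod 19.6 and 13.1 TPM. Whether the share differs because the level does was not tested. Hba-a1 and Hba-a2 are near-identical copies, as are the beta-globin genes, so how their reads were divided is uncertain. Among red cell membrane genes 1 of 7 was called, close to the 13.7% of all genes tested. It was Epb42 (0% and 43.3% of reads, 2.40 and 11.9 TPM for the gene). Of 17 cell cycle genes tested Cdc25b was higher in replicate 2 (0% and 46.7%), and Mcm3, Ccnl1 and Cdk1 were higher in replicate 1. Also called were 2 of 9 export factors (Alyref and Ddx39) and 1 of 10 decay and surveillance factors (Smg9). So were 1 of 7 erythroid and haematopoietic regulators (Bcl11a) and 1 of 11 snoRNA host genes (Tpt1).

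The differences of largest size were in genes of few reads. Arhgap30 had 15.8% of 38 reads and 100% of 49 (adjusted p = 2.21e-16, Fisher's exact test), and Gls2 0% of 53 and 64.1% of 78. Fcho1 and Slc1a5 had more reads in replicate 2. Slc1a5, an amino acid transporter, had 14.2% of 131 reads and 80.1% of 269, with Slc1a5-207, which keeps an intron of 477 nt, at 0.2 and 3.52 TPM. In the other direction Camkk1 had 100% of 30 reads and 0% of 55, Stx1a 100% of 27 and 0% of 28, Fam120c 144 of 167 reads and 20.9 of 174, and Dennd2c 73.7% of 93 and 10.4% of 242. In Camkk1, Stx1a and Fam120c all of this rests on 1 annotated retained-intron transcript.

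Single transcripts were compared by an exact binomial test against the ratio of scaled library sizes, two-sided and adjusted over 30442 annotated transcripts. Of 6682 retained-intron transcripts 2013 (30.1%) passed at an adjusted p under 0.05 and a ratio of at least 2, against 30% of all transcripts tested, so they were called about as often as transcripts in general. Of the 2013, 1177 were higher in replicate 2 and 836 in replicate 1, but with library sizes taken as total counts the split was 784 and 1598. That scaling moved the median log2 ratio of all transcripts from 0.00 to -0.52. The deposited TPM intervals lay apart for 856, of which 299 were higher in replicate 2 and 557 in replicate 1 by scaled counts. Those intervals are in TPM, in which the median protein-coding gene was 1.57 times higher in replicate 1. This split is therefore not on the scale of the 1177 and 836. A negative binomial exact test (edgeR) called 0 of the 6682 after adjustment, with 323 at an unadjusted p under 0.05. With 1 library on each side it takes its spread from the difference it tests, so that its 0 says little. In 616 the count was 0 in 1 library. The abundant Hbb-bs-202 (212 and 2756 counts) was 14.5-fold higher in replicate 2 (95% Clopper-Pearson interval 12.6 to 16.7), and Hba-a1-202 17.2-fold (14.4 to 20.7). Ppox-207, which keeps 5 introns, was 5.32-fold higher (4.69 to 6.05), and Kel-203, from a blood group antigen gene, had 2.03 and 75.1 counts. Eef1a1-202 was 4.30-fold higher in replicate 1 (3.97 to 4.66), with intervals of 190 to 254 TPM in replicate 1 and 24.9 to 43.0 TPM in replicate 2. Ncl-202 (ratio 0.931), Rpl12-202 (1.06), Hnrnpk-215 (0.964) and Mcm3-205 (0.950) stayed within 1.1-fold.

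Among called transcripts with a mean of 50 counts or more, those of largest ratio had no count in 1 library. Slc43a1-205 had 0 and 376 counts, with a deposited interval of up to 0.0380 TPM in replicate 1 and from 2.90 TPM in replicate 2. Fcho1-208 (0 and 200 counts), Slc1a5-202 (0 and 135) and Trrap-206 (0 and 125) were likewise listed at 0 in replicate 1. Actr3-204 (186 and 0 counts), Tpx2-205 (150 and 0) and Golga2-204 (131 and 0) were listed at 0 in replicate 2. In some the deposited intervals come close to each other although the counts do not. Ppia-203 (0 and 170 counts) reached up to 6.91 TPM in replicate 1 and started at 13.3 TPM in replicate 2. Arnt-209 (175 and 0 counts) started at 0.723 TPM in replicate 1 and reached up to 0.540 TPM in replicate 2. No fold is given for these transcripts, since a bound from the counts would pass what the intervals allow.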

How the data were processed

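Total RNA of 2 G1E libraries was quantified per transcript by the authors, and the deposited files give for each entry an expected count (an estimated count that need not be whole), TPM, the isoform percentage of the gene's TPM in percent, and the lower and upper bound of a credibility interval for TPM whose level is not stated. Which program made these values is not given in the sources used. Per the file records the build is mm10 with GENCODE M4, while transcript classes, exons and sequences were taken from GENCODE M21, so members are only those whose identifier is in both.

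The retained-intron share of a gene is the sum of the isoform percentages of its members. Genes needed at least 5 TPM, and transcripts 1 TPM, in both libraries. Fisher's test used genes with at least 20 counts, the binomial test transcripts with at least 10, with estimated counts rounded to whole numbers and TMM library sizes (edgeR 4.0.16). DESeq2 1.42.0 size factors were an alternative. Scripts ran in Python 3.11.15 with pandas 2.3.3, NumPy 2.4.6 and SciPy 1.17.1, and in R 4.3.3, and were tested on simulated data. Counts per library are in the report, and intervals cover counting error only. An intron was read from the sequence of the transcript that keeps it.

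The members, gene lists and tests were chosen with earlier results of these data known. Named genes were the 10 of highest share, the 10 of highest summed TPM, the 10 most abundant transcripts, up to 4 high and 2 low genes of each list, the 5 largest differences in each direction, and 3 genes on each side of the 50% threshold. Listed genes called between the libraries and transcripts with a snoRNA were named after their values were seen. Coverage tracks were not used here. A few of the genes chosen in this way are left out here.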

Additional observations from a re-analysis of the deposited data

How the results depend on the processing

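The share of protein-coding TPM on retained-intron transcripts (9.71%) was 10.1% with posterior mean TPM, 5.58% by estimated counts, 8.54% with interval bounds above 0.1 in both libraries and 11.2% without histone, ribosomal protein and mitochondrial genes, and 9.59% to 9.83% with 1 library left out. The 175 genes at 50% or more in both libraries became 79 by counts, 280 with a gene minimum of 1 TPM, 48 with 20 TPM, 357 with none, 683 at a share of 25%, 23 at 75%, and 263 to 299 with 1 library left out. On transcripts that span a whole intron they were 15, an alternative chosen after seeing the data. The 2215 transcripts at 1 TPM became 6283 at 0.1 TPM, 340 at 5 TPM, 1322 with an interval from 1 TPM, 4188 at 10 counts, and 2727 to 3513 with 1 library left out. The 548 genes that differed between the libraries became 1354 with no minimum difference and 195 with 20 points. The 2013 transcripts became 856 with intervals apart and 0 in the negative binomial test, whose spread comes from the same pair of libraries and which is therefore no check. The median kept intron (294 nt, 44.2% GC) was 178 nt and 43.1% at 5 TPM, 352.5 nt and 42.5% with an interval from 1 TPM, and 268 to 272.5 nt and 45.1% to 45.2% with 1 library left out. Minimum values and rules set most of these counts by construction; for the others the cause was not tested. No comparison of the libraries is left when 1 is taken out. No paired analysis was possible because the labels give 1 group. Depth limits the transcripts of few reads, and nearly all counts rest on a division of shared reads.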
